A study of Mus musculus with 25 samples.

Results

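The mir-29 family of the mouse has 4 microRNA precursors (hairpins), mmu-mir-29a, mmu-mir-29b-1, mmu-mir-29b-2 and mmu-mir-29c (without their species prefix below), and all 4 were measured here in blood across the life span. They were chosen by name as the members of the family, and are 4 of the 1193 precursors in the table of counts that the authors deposited. Small RNA of whole blood was sequenced in males of the inbred laboratory strain C57BL/6 aged 2, 9, 15, 24 and 30 months, with 5 libraries at each age and 25 in all. The labels name no treatment or genetic change, so age is the only labelled difference between groups. Each library carries the number of a separate animal, and the p-values below set differences between ages against the spread between such libraries.

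A microRNA is cut from a hairpin as a short single strand that guides an Argonaute protein to messenger RNAs, and the bases near its 5′ end, the seed, do most of the pairing. Members of the mir-29 family are best known for holding down collagens, elastin and other genes of the extracellular matrix, and are therefore described as antifibrotic. They also target the DNA methyltransferases Dnmt3a and Dnmt3b and, in mouse T cells, the transcription factors Tbx21 and Eomes and interferon gamma. Higher mir-29 has been described in several ageing mouse tissues, which is the background for asking whether blood shows the same.

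The mature 3p strands, the ones the family is known for, are shown because they share a seed and differ further along. They are taken from RefSeq with assembly GRCm38.p6, which holds all 4 precursors, and are written 5′ to 3′ with the seed (bases 2 to 8) in capitals.
miR-29a-3p: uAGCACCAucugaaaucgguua
miR-29b-3p: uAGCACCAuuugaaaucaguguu
miR-29c-3p: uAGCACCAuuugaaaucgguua
Counting from 1 at the 5′ end, miR-29c-3p differs from miR-29a-3p by 1 base, C10U. miR-29b-3p carries C10U too, together with G18A, U21G and A22U, and is 1 base longer, at 23 against 22 nt. Among the 1738 mature entries of the same source, the seed AGCACCA occurs in 4, those of these 4 precursors. The share of G and C is 40.9% in miR-29a-3p, 36.4% in miR-29c-3p and 34.8% in miR-29b-3p. The GC slope described below rests on all mature sequences of a precursor, not on these shares. The last 6 bases of miR-29b-3p, AGUGUU, were searched for in all mature entries as an RNA motif on the strand given. They occur in 14 of the 1738 entries (0.806%) and end 3 of them. In human cells these bases are known to direct miR-29b to the nucleus, and neither miR-29a-3p nor miR-29c-3p holds them.

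The hairpins of mir-29b-1 and mir-29b-2 are shown because both give the same 3p strand. Both annotated arms are in capitals.
mir-29b-1: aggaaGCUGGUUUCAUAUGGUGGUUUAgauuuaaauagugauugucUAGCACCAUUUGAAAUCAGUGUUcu
mir-29b-2: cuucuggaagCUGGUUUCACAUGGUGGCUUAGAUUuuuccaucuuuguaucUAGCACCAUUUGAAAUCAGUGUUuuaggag
All 23 letters of the 3p arms are identical, while the 5p arms differ in sequence and in annotated length, at 22 nt for mir-29b-1 and 25 nt for mir-29b-2. A read of miR-29b-3p therefore fits either hairpin.

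The 4 hairpins form 2 genomic clusters, given here in assembly GRCm38, since the build the authors used is not given. mir-29a lies at chr6:31062660-31062747 on the minus strand, with no other annotated gene across it. mir-29b-1 lies at chr6:31063023-31063093 on the same strand, within an exon of the long non-coding RNA Gm27019, and the pair spans 434 nt. mir-29b-2 lies at chr1:195037040-195037120 and mir-29c at chr1:195037547-195037634, both on the plus strand within exons of the non-coding transcript A330023F24Rik, and this pair spans 595 nt. An exon of Cd46, which encodes a complement regulator, lies across both on the opposite strand. Whether strand was used in counting is not given, so reads from that strand cannot be told apart.

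mir-29a made up nearly the whole family in blood. Levels are given in CPM, counts scaled by library size, with library sizes set by trimmed mean of M-values (TMM). Over the 25 libraries mmu-mir-29a averaged 642 CPM, from 500.4 to 783.6 CPM, which rests on 3816 to 16595 counts per library and ranks 46th of the precursors that passed the expression filter and were tested. mmu-mir-29c averaged 17.9 CPM (92 to 522 counts), 35.9-fold below mir-29a. mmu-mir-29b-2 averaged 5.30 CPM and mmu-mir-29b-1 averaged 5.18 CPM, with mir-29b-2 121-fold below mir-29a, both on 22 to 190 counts per library. The mir-29a share of the family's counts lay between 93.98% and 97.99%, with a median of 95.62%. Because a read of a small RNA library holds 1 mature strand and these strands are of nearly equal length, the counts were not divided by length. How well the kit captures each sequence was not measured, and these ratios describe counts.

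The rows of cluster partners did not have equal counts. mir-29a and mir-29b-1 lie in 1 cluster, and mir-29b-1 had 0.673% to 0.822% of the counts of mir-29a (geometric means by age). mir-29b-2 had 25.7% to 32.2% of the counts of its partner mir-29c, on the same measure. The mir-29b rows had nearly equal counts and may share reads, so output per hairpin cannot be compared between clusters. The contrast of these shares mainly restates that mir-29a exceeded mir-29c. Between neighbours in the order of levels, mir-29a was above mir-29c and mir-29c above both mir-29b rows in every library. mir-29b-2 and mir-29b-1 did not differ beyond their spread.

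**Figure D1:**
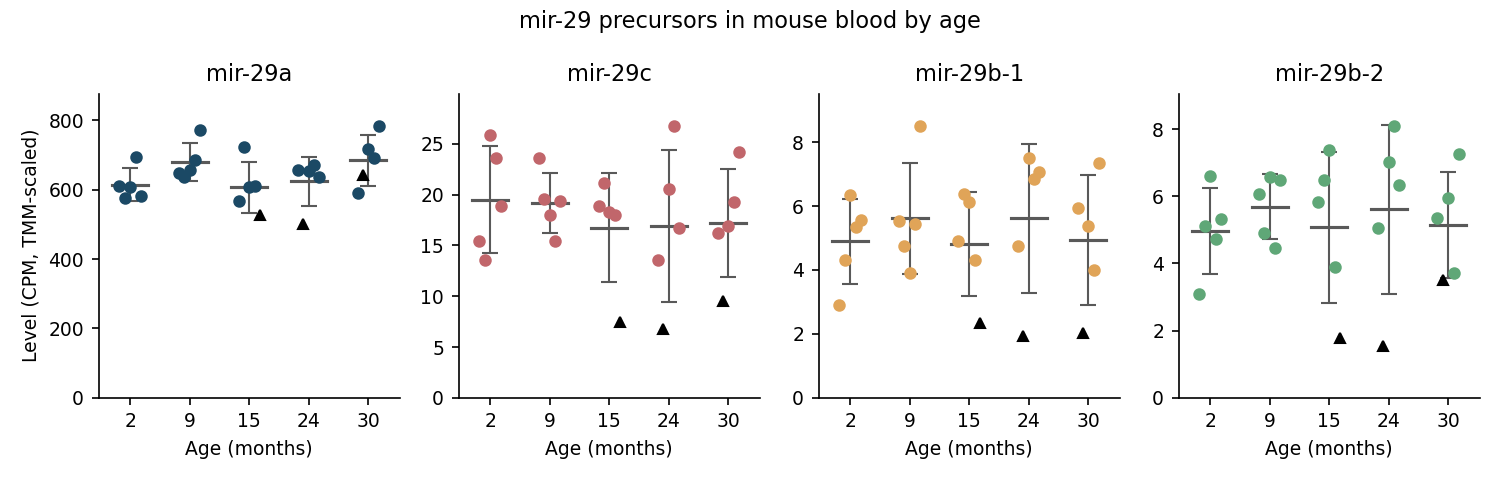
Level of each mir-29 precursor (y axis, CPM on TMM-scaled library sizes, a separate scale per panel) against age in months (x axis). Points are libraries, horizontal lines are means of 5 libraries, bars are ± SD, and black triangles are the 3 libraries described below in which counts leaned to GC-rich sequences. mir-29a sits between 500.4 and 783.6 CPM, and for mir-29c the 3 triangles are the lowest points.

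The mean of mir-29a lay between 607.4 and 684.7 CPM at every age. At 2 months it had 610.2, 576.3, 606.8, 695.8 and 582 CPM in the 5 libraries. At 9 months it had 648.6, 637, 657.6, 686.9 and 772.2 CPM. At 15 months it had 568, 723.4, 607.3, 610.8 and 527.6 CPM. These 3 ages overlap, although all 5 libraries of 9 months were above 4 of the 5 of 2 months. At 24 months mir-29a had 658.3, 500.4, 654.4, 671.1 and 636.4 CPM, and at 30 months 591.1, 641.3, 716.7, 690.6 and 783.6 CPM. The means ± SD were 614.2 ± 48.0 CPM at 2 months, 680.5 ± 54.5 at 9, 607.4 ± 73.1 at 15, 624.1 ± 70.3 at 24 and 684.7 ± 73.3 at 30 months (n = 5 each). The ranges of all 5 ages overlap, with the highest single library at 30 months and the lowest at 24 months.

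The log2 change of mir-29a at 30 against 2 months was 0.16 (SE 0.11), with a 95% interval from -0.07 to 0.38, and did not pass the threshold of 0.05 (adjusted p = 0.376, edgeR's quasi-likelihood F test with Benjamini-Hochberg adjustment over all precursors tested). As a fold this interval runs from 0.952 to 1.31. The log2 change was 0.15 at 9 months (adjusted p = 0.811), -0.02 at 15 months (0.976) and 0.02 at 24 months (0.926), each against 2 months in the same edgeR fit. The slope was 0.027 log2 units per 10 months (adjusted p = 0.670). Scaling by library totals instead of TMM gave mir-29a 0.41 at 30 and 0.40 at 24 against 2 months (adjusted p = 0.130 and 0.114), but it also moved the median of all tested precursors by 0.24 and 0.36. Relative to that median mir-29a stood at 0.20 at 30 months and 0.04 at 24 months, against 0.19 and 0.03 with TMM. TMM scales each library to 1 of them, chosen by edgeR, and with each of the 25 in turn as that library, a check added after seeing the data, the change of mir-29a at 30 months ran from 0.13 to 0.30 (median 0.17). It was past the threshold with 0 of the 25 (smallest adjusted p = 0.0597, edgeR).

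mir-29c, which differs from mir-29a by 1 base in its 3p strand, was more variable than mir-29a. At 2 months it had 15.39, 13.53, 25.89, 23.64 and 18.9 CPM. At 9 months it had 23.62, 19.54, 18.01, 15.46 and 19.34 CPM. At 15 months it had 18.89, 21.15, 18.24, 17.94 and 7.429 CPM. The last of these is far below the other 4 libraries of its age. At 24 months mir-29c had 13.56, 6.78, 20.58, 26.73 and 16.67 CPM, and at 30 months 16.18, 9.484, 16.87, 19.22 and 24.23 CPM. Both the highest and the lowest library of all 25 were at 24 months. The log2 change at 30 against 2 months was -0.18 (SE 0.29), with a 95% interval from -0.79 to 0.43 (adjusted p = 0.746, edgeR). It was -0.02 at 9 months, -0.22 at 15 months and -0.22 at 24 months, with adjusted p from 0.694 to 0.983 in the same edgeR fit. The slope per 10 months was -0.08 (adjusted p = 0.589).

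The mir-29b rows rest on few counts and their intervals are the widest. At 2 months mir-29b-1 had 2.91, 4.322, 6.362, 5.344 and 5.573 CPM, and at 9 months 5.519, 4.766, 3.894, 5.436 and 8.502 CPM. At 15 months it had 4.912, 6.392, 6.122, 4.304 and 2.342 CPM, and at 24 months 4.737, 1.928, 7.493, 6.858 and 7.062 CPM. At 30 months it had 5.944, 2.026, 5.386, 4.003 and 7.349 CPM. Each age from 15 months on has 1 library below every library of 2 months, and the ranges of all ages overlap. mir-29b-2 ranged from 3.078 to 6.617 CPM at 2 months, 4.448 to 6.571 at 9, 1.776 to 7.363 at 15, 1.555 to 8.089 at 24 and 3.499 to 7.249 CPM at 30 months. At 30 against 2 months the log2 change was 0.01 (SE 0.34, 95% interval -0.69 to 0.71) for mir-29b-1 and 0.05 (SE 0.34, 95% interval -0.65 to 0.75) for mir-29b-2. As folds these intervals run from 0.621 to 1.63 and from 0.636 to 1.68, so changes within these bounds in either direction are compatible with the data.

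**Figure D2:**
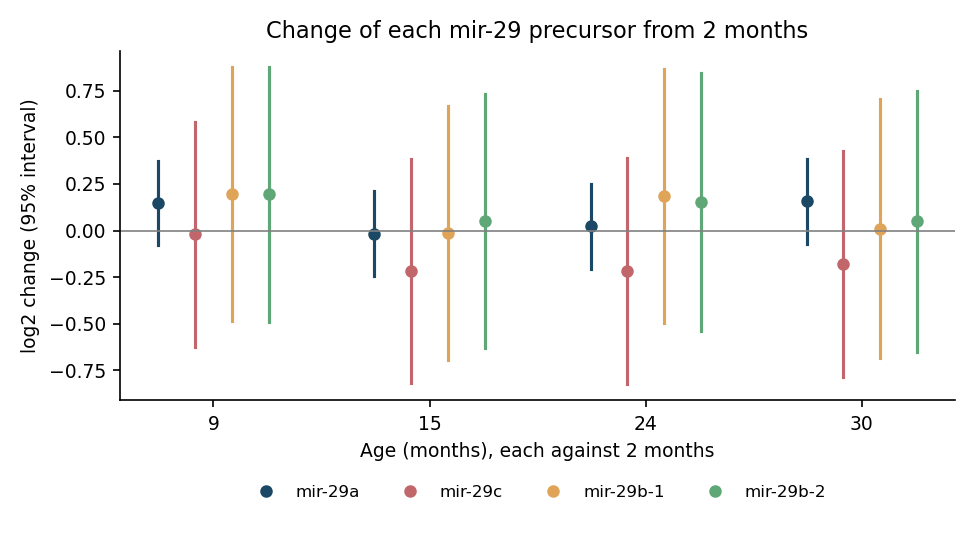
log2 change (y axis) of each mir-29 precursor at 9, 15, 24 and 30 months, each against 2 months (x axis), from the edgeR fit over 25 libraries. Points are estimates and lines 95% intervals. All 16 intervals hold 0, and those of mir-29a are the shortest.

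No member passed the threshold in any comparison. At 30 against 2 months 0 of the 4 members passed, where 48 of all precursors tested did (14.2%). The other ages gave the same 0 of 4 for the family, beside 2.07% of all tested precursors at 9, 1.48% at 15 and 12.1% at 24 months against 2 months, 7.99% for any age and 19.8% for the linear trend. Between neighbouring ages, 0 of the 4 members passed at 15 against 9, at 24 against 15 or at 30 against 24 months, beside 0%, 2.07% and 0% of all precursors. At an unadjusted p under 0.05, 0 of the 4 members passed in any of these 9 edgeR comparisons, beside 7.69%, 5.92%, 24.6% and 26.6% of all precursors at 9, 15, 24 and 30 against 2 months, 2.07%, 10.4% and 3.85% for the neighbouring ages, 20.4% for any age and 32.5% for the trend. The ranges at 30 and 2 months overlapped for each of the 4 members, while they did not for 10.7% of all precursors. The smallest unadjusted p of a member was 0.151, for mir-29a at 15 against 9 months. DESeq2 and limma-voom, run on the age comparisons and the trend, also called 0 of the 4. At 30 against 2 months they called 54 and 44 of all precursors, against 48 in edgeR. With 4 members, a count of 0 is not set apart from a background of these sizes, and a missed threshold does not show that levels were equal. The intervals bound the change, most closely for mir-29a.

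Total mir-29, the sum of the 4 rows, was 643.6 ± 51.2 CPM at 2 months, 711 ± 55.9 at 9, 634 ± 79.96 at 15, 652.2 ± 80.8 at 24 and 711.9 ± 79.3 CPM at 30 months (SD, n = 5 each). These sums follow mir-29a. Whole blood holds several cell types, and fewer cells of a type and less RNA per cell cannot be told apart in it.

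Libraries of the same age differed little in mir-29a. Its coefficient of variation (CV, the SD as a share of the mean) within an age averaged 10.1%, the 11th lowest of the 152 precursors with a mean of at least 10 CPM, whose median was 18.96%. Over all 25 libraries its CV was 10.6%, the 6th lowest of the 152, with a median of 20.76%. The edgeR estimate of its biological CV was 15.0%, beside 28.8% for the trend at its abundance. mir-29c had a CV of 28.7% over the 25 libraries, mir-29b-2 of 31.7% and mir-29b-1 of 33.2%.

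Ratios within a library do not depend on the scaling, so they show whether members moved apart. mir-29c stood at 2.42% of mir-29a at 30 months and 3.09% at 2 months, a log2 difference of -0.35 (exact two-sided permutation test, p = 0.206, adjusted p = 0.75 over 12 tests). mir-29b-1 stood at 0.673% of mir-29a at 30 months and 0.778% at 2 months, a log2 difference of -0.21 (exact permutation p = 0.571, adjusted p = 0.762). mir-29b-2 stood at 30.3% of mir-29c at 30 months and 25.7% at 2 months, a log2 difference of 0.24 (exact permutation p = 0.349, adjusted p = 0.75). None of the 12 tests, 3 ratios at 4 ages, passed the threshold, and the smallest exact permutation p was 0.175, for mir-29b-2 to mir-29c at 24 against 2 months, where the log2 difference was 0.33. In libraries thinned to equal depth this difference was 0.68 (exact permutation test, adjusted p = 0.0952), and that at 15 months was 0.51, against 0.18 unthinned (adjusted p = 0.238 when thinned). Thinning was 1 random draw, after which mir-29b-2 rested on only 8 to 48 counts per library. How far these values vary between draws was not tested. With 5 libraries against 5 the smallest p this test allows is 0.00794.

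**Figure D3:**
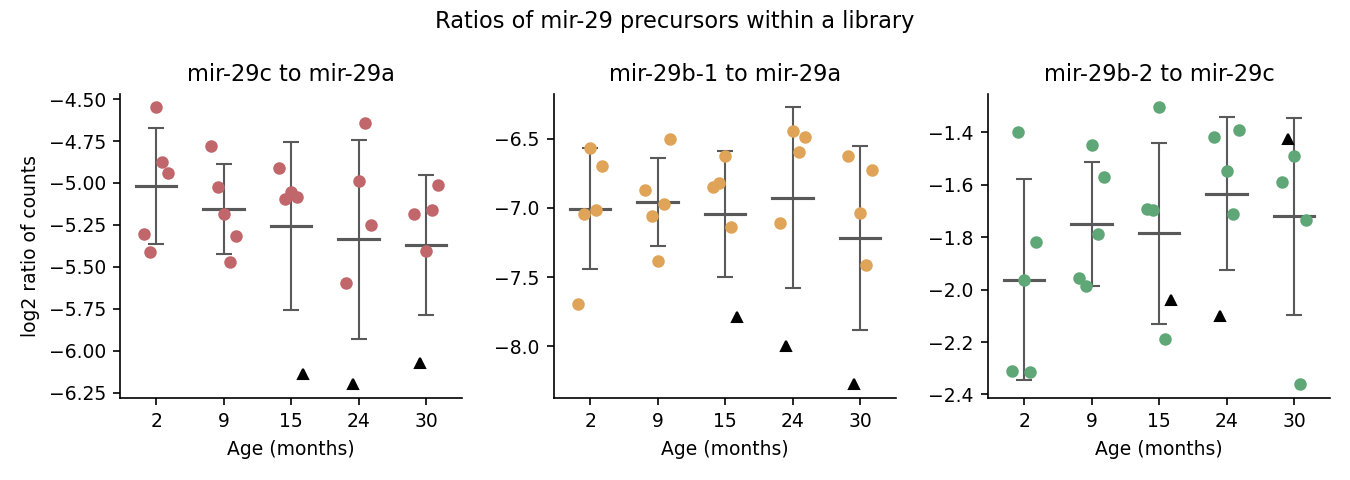
log2 ratio of counts within a library (y axis) for mir-29c to mir-29a, mir-29b-1 to mir-29a and mir-29b-2 to mir-29c against age in months (x axis). Points are libraries, lines are means of 5 libraries, bars are ± SD and black triangles are the same 3 libraries as in the plot of levels. The triangles are the lowest points of both ratios to mir-29a but not of mir-29b-2 to mir-29c.

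The 2 mir-29b rows were close to equal. Summed over the 25 libraries mir-29b-1 had 2007 counts and mir-29b-2 had 2044, a mir-29b-1 share of 49.54% (exact 95% binomial interval 47.99% to 51.1%). In single libraries the share ran from 36.67% to 56.86%. The library interval held 50% in 24 of 25 libraries, the exception being 9 months replicate 3 with 48 and 81 counts. The chi-square of all libraries against an even split was 28.57 on 25 degrees of freedom, or 1.14 per degree of freedom. How reads that fit both hairpins were counted is not given, so the rows are uncertain as separate measurements, and what each hairpin contributes cannot be told apart. Such intervals cover counting error only, as the kit adds no molecular identifiers.

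**Figure D4:**
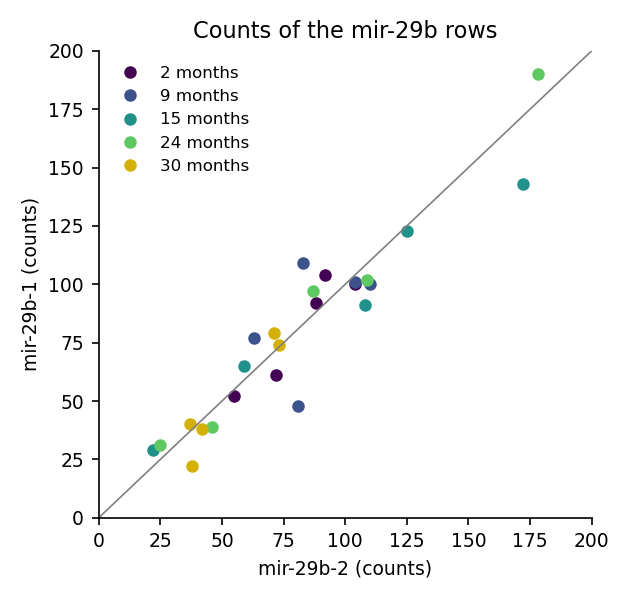
Counts of mir-29b-1 (y axis) against counts of mir-29b-2 (x axis) in the 25 libraries, coloured by age, with the line of equal counts. The points lie along the line, from 22 to 190 counts of mir-29b-1.

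Across libraries the 3 rarer rows moved together more closely than with mir-29a. Over the 25 libraries Pearson's r of log2 CPM was 0.872 between mir-29b-1 and mir-29b-2, 0.836 between mir-29b-2 and mir-29c and 0.819 between mir-29b-1 and mir-29c. It was 0.609 between mir-29a and mir-29c, 0.599 between mir-29a and mir-29b-2 and 0.596 between mir-29a and mir-29b-1. All rows share libraries and depth, the mir-29b rows may share reads, and these are descriptions without a test. Each pair was also read without the 2 libraries farthest from the median of its first-named row, so different libraries are left out. On that measure mir-29a and mir-29c had r = 0.427, mir-29b-1 and mir-29c had r = 0.684 and mir-29b-2 and mir-29c had r = 0.588.

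The 3 low libraries of mir-29c also differed in the base composition of their counts. For each library the slope of log2 CPM, relative to each precursor's mean, on the GC content of the mature sequences was computed. It was 0.1996, 0.2409 and 0.2698 log2 units per 10 percentage points of GC in 15 months replicate 5, 24 months replicate 2 and 30 months replicate 2, and between -0.1762 and 0.1149 in the other 22. In these 3 libraries mir-29c had 6.78 to 9.484 CPM, against 13.53 to 26.73 CPM in the other 22. mir-29b-1 had 1.928 to 2.342 CPM, against 2.91 to 8.502 CPM. mir-29b-2 had 1.555 to 3.499 CPM, against 3.078 to 8.089 CPM. mir-29a had 500.4 to 641.3 CPM, against 568 to 783.6 CPM. The ranges do not overlap for mir-29c and mir-29b-1 and overlap for mir-29a and mir-29b-2. The share of all tested precursors without such overlap was not computed. The slope that set these libraries apart comes from the same counts, so the separation is a description only. The red-cell precursor mir-144 had 152.5 to 447 CPM in the 3 libraries, against 279.9 to 1442 CPM in the other 22, which overlaps. mir-451a, another red-cell precursor, lay within the range of the others.

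Over the 25 libraries r between log2 CPM and the GC slope was -0.787 for mir-29c, -0.783 for mir-29b-1, -0.748 for mir-29b-2 and -0.291 for mir-29a, a description in which the slope is computed from the same counts. The 3 libraries lie at 3 different ages and none at 2 or 9 months. Without them, an alternative chosen after seeing the data, the log2 change of mir-29c against 2 months was -0.03 at 30 months (SE 0.20), -0.02 at 24 and -0.03 at 15 months. Leaving out 30 months replicate 2 alone gave -0.03 at 30 months, leaving out 2 months replicate 3 alone gave -0.06 and leaving out 2 months replicate 4 alone gave -0.10. At 24 months the value was -0.02 without 24 months replicate 2 alone, and at 15 months -0.03 without 15 months replicate 5 alone. mir-29b-1 without the 3 libraries stood at 0.21 at 30 months and 0.41 at 24 months (adjusted p = 0.646 and 0.279, edgeR). mir-29b-2 without them stood at 0.16 at 30 months and 0.40 at 24 months (adjusted p = 0.707 and 0.263, edgeR). mir-29a stood at 0.18 at 30 months (adjusted p = 0.332, edgeR). With a linear GC correction of every library mir-29c stood at -0.13 at 30 months (SE 0.27). mir-29a then stood at 0.26 at 30 months (SE 0.11, adjusted p = 0.111, edgeR) with a slope of 0.054 per 10 months, against 0.16 and 0.027 without the correction. None passed the threshold. The part that base composition has in the levels was not tested further.

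**Figure D5:**
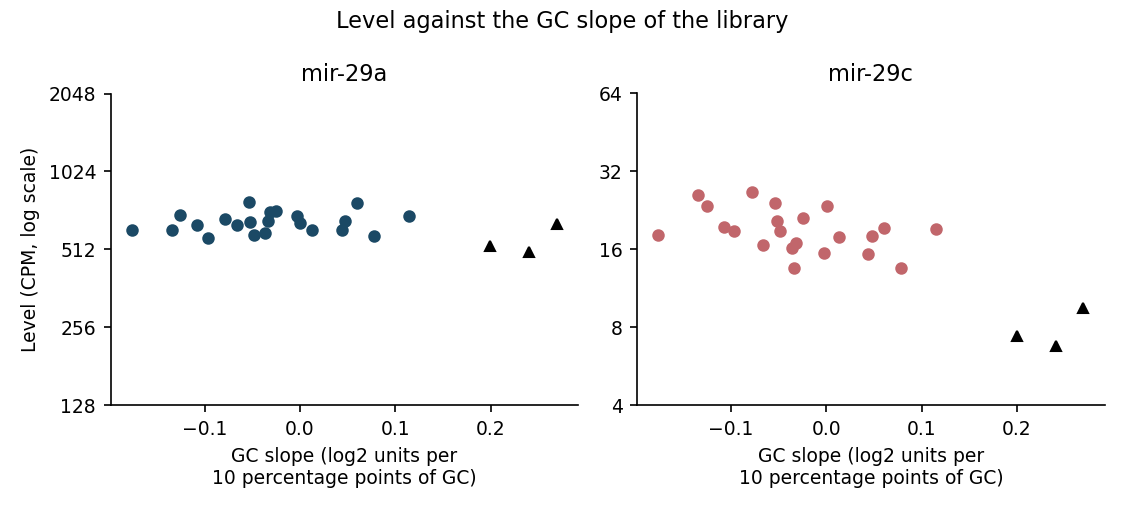
Level of mir-29a (left) and mir-29c (right) in CPM (y axis, log scale) against the GC slope of the library (x axis, log2 units per 10 percentage points of GC). Points are the 25 libraries and black triangles the 3 with a slope of 0.1996 or more, which lie lowest for mir-29c.

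Sequencing lanes, read from the column names, were unevenly spread over ages. Within lanes that held a 2-month library, 17 pairs of an older and a 2-month library could be formed. The mean within-lane log2 difference was 0.07 for mir-29a, higher in the older library in 10 of 17 pairs, and 0.15 for its 5 pairs at 30 months, higher in 3 of 5. At 9 months it was also 0.15, from 0.062 to 0.19, and mir-29a was higher in the older library in 4 of 4 pairs. For mir-29c it was -0.25, higher in the older library in 7 of 17 pairs. Pairs in a lane share a 2-month library and were not tested. With lane as a term in the edgeR fit mir-29a stood at 0.17 and mir-29c at -0.15 at 30 against 2 months (adjusted p = 0.369 and 0.804). In that fit mir-29c stood at -0.35 at 15 months and -0.39 at 24 months (adjusted p = 0.856 and 0.503, edgeR), against -0.22 at both ages without lane.

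By a fixed rule, the 3 precursors of at least 10 mean CPM whose log2 CPM was most like each member's over the 25 libraries were taken from 150 candidates. For mir-29a these were let-7b (r = 0.539), mir-130a (0.537) and mir-221 (0.496). For mir-29c they were mir-15a (0.818), mir-301a (0.797) and mir-221 (0.794). mir-29b-1 was closest to mir-301a (0.817), mir-221 (0.793) and mir-15a (0.789), and mir-29b-2 to mir-221 (0.783), mir-340 (0.741) and mir-301a (0.730). Without the 2 libraries farthest from the median of the mir-29 member, mir-15a and mir-29c had r = 0.714, and let-7b and mir-29a 0.420. mir-221 is in all 4 sets, and the values share library and depth.

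Other microRNAs known for the same kinds of target were read beside the family. Of 18 listed precursors described as antifibrotic (the mir-30, mir-26, mir-101, mir-133a and mir-200 families), 16 were tested at 30 against 2 months, of which 0 rose and 1 fell. The one that fell was mir-26b, at -0.99 (SE 0.32, adjusted p = 0.0399, edgeR). It was not past the threshold without the 3 libraries named above (-0.815, adjusted p = 0.0702), with lane in the fit (-0.95, adjusted p = 0.0576) or with library totals (-0.72, adjusted p = 0.195), all in edgeR. Their median log2 change was -0.44, beside -0.04 over all tested precursors and 0.03 over the 4 mir-29 members. In the linear trend 4 of the 16 fell (mir-26b, mir-30e, mir-101a and mir-200c) and 0 rose, against 1 that fell without the 3 libraries (mir-101a) and 2 that rose and 0 that fell with library totals (mir-30c-1 and mir-30c-2). Shares of all tested precursors were 9.17% higher and 5.03% lower at 30 against 2 months, and 10.7% higher and 9.17% lower in the trend.

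Beside the counts in the next lists, 9.17% of all tested precursors rose and 5.03% fell at 30 against 2 months. Of 8 listed precursors described as profibrotic, 6 were tested at 30 against 2 months, 0 rose and 1 fell. That was mir-199a-1, known from stromal cells and platelets, at -1.66 (SE 0.39, adjusted p = 0.00755, edgeR). The 6 precursors listed as targeting DNA methyltransferases (mir-143, the mir-148 and mir-152 group and mir-101) gave 0 in either direction at 30 against 2 months, with a median of -0.26. At that age 1 of them, mir-101a, fell without the 3 libraries and also with GC correction, calls added after their values were seen. In the linear trend over all libraries mir-101a fell and 0 of the 6 rose, while with library totals 0 fell. Of 7 listed for the interferon gamma response of T cells, 2 rose and 0 fell at 30 against 2 months. mir-24-2 rose by 0.43 (SE 0.10, adjusted p = 0.00755) and mir-27a by 0.58 (SE 0.19, adjusted p = 0.0426), both in edgeR. The call of mir-27a was lost without the 3 libraries (adjusted p = 0.077, edgeR), with GC correction (adjusted p = 0.0508, edgeR) and with RLE factors (adjusted p = 0.0536, edgeR). Both are also on the myeloid list, as they come from a cluster with mir-23a that myeloid cells express.

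Markers of blood cell types were read beside these values. The same shares of all tested precursors, 9.17% higher and 5.03% lower at 30 against 2 months, stand beside their counts. The red-cell precursors mir-486a and mir-451a were high in every library, at 191200 to 394500 and 58060 to 120900 CPM, as the label blood calls for. The lymphocyte precursor mir-150 lay between 64.01 and 775.3 CPM and the endothelial and platelet precursor mir-126a between 2.67 and 18.15 CPM. Of 8 myeloid precursors 5 rose at 30 against 2 months and 0 fell, and 3 rose without the 3 libraries (mir-223, mir-23a and mir-24-2). mir-223, the defining one of neutrophils and monocytes, rose by 1.44 (SE 0.17, adjusted p = 1.65e-06, edgeR), with 109 to 208.2 CPM at 30 months and 55.1 to 62.49 CPM at 2 months. mir-23a rose by 0.90 (adjusted p = 0.00066, edgeR). Of 12 erythroid precursors 0 rose and 1, mir-144, fell by 1.41 (adjusted p = 0.0101, edgeR), and by 1.19 without the 3 libraries (adjusted p = 0.00375). Of 8 lymphocyte precursors 0 passed the threshold at 30 against 2 months. Their log2 changes ran from -0.76 to 0.97, so this does not show steady levels. In the linear trend mir-155, on this list, rose with upper quartile factors, library totals, GC correction and without the 3 libraries. It did not pass in the trend over all libraries with TMM, with RLE factors or with lane in the fit. Of 6 platelet and endothelial precursors 1 rose, mir-222 (0.31, adjusted p = 0.0426), and 2 fell, mir-199a-1 and mir-126a (-1.35, adjusted p = 0.0101, edgeR). In edgeR the calls of mir-144 and mir-126a were lost with library totals (adjusted p = 0.0533 and 0.0554), and that of mir-222 with lane in the fit (0.0577), with GC correction (0.0542) and without the 3 libraries (0.0924). Of 9 precursors of liver, muscle and brain 3 were tested and 0 passed the threshold. Their median log2 change was -1.69, from -1.73 to -0.38, so the missed threshold does not show steady levels. mir-206 was at 0 in all 25 libraries, and mir-122 reached at most 1.18 CPM. The muscle precursor mir-133a-1 reached at most 101 CPM by library totals. With TMM its CPM ran from 11.2 to 116.5 in the youngest group and from 4.364 to 21.32 in the oldest, which overlaps. The part of blood cell makeup in the mir-29 levels was not tested.

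Total counts ran from 4.884 to 24.25 M (mega) counts per library, with a median of 15.39 M, and were smallest on average at 30 months (mean 9.888 M, SD 2.71, n = 5), against a mean of 18.84 M (SD 2.81, n = 5) at 2 months. A floor of 3 counts corresponds to between 0.118 and 0.528 CPM, so every member was above it in every library, and the mir-29b rows come closest.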

How the data were processed

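The authors deposited 1 table of raw counts, whole numbers of reads per microRNA precursor and library, for 1193 precursors in 25 libraries. Per the labels' protocols the kit was TruSeq smallRNA. The submitters' processing notes list SAMtools 1.3.1-9, Trimmomatic 0.36 and bcl2fastq 1.8.4. The aligner, counter, build and strand setting are not given. Each hairpin has 1 value for both arms, and 328 precursors were at 0 throughout.

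Counts were fitted over all 25 libraries with edgeR 4.0.16 in R 4.3.3 (TMM factors, default expression filter by age, robust quasi-likelihood F test, age as 5 groups or in months). Benjamini-Hochberg adjustment ran over all 338 precursors tested, which hold at least 99.992% of each library's counts, with a threshold of 0.05. Intervals of changes are the estimate ± the 95% point of t times the SE. log2 CPM used a prior count of 2 and ratios a pseudocount of 0.5. The code was tested on simulated data. Libraries of the same age differed beyond sampling noise (smallest chi-square per degree of freedom 133.8 over 50 pairs). Replicate numbers follow the order of deposit and pair no animals.

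The GC slope used mature sequences of RefSeq, matched for 89.05% of the tested precursors. Alternatives were other scalings, filters, DESeq2 1.42.0, limma 3.58.1, lane, thinning to the smallest library, GC correction, merged mir-29b rows, other TMM reference libraries and leaving out libraries. Where libraries were left out or rows merged, the precursors tested and the TMM factors were held as in the fit over all libraries. Index sequences in the column names differ in every library and nearly follow the order of ages, so index and age cannot be told apart.

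Named precursors are the 4 members, the 3 most like each, the markers mir-451a, mir-486a, mir-223, mir-150 and mir-126a, and up to 3 of each list past the threshold with the smallest adjusted p at 30 against 2 months. Trend and alternative calls of list members were added after their values were seen. The members and lists were chosen with earlier results of these data known. Lists share members, such as mir-24-2, mir-27a, mir-155 and mir-133a.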

Additional observations from a re-analysis of the deposited data

Results flagged for a closer look

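In groups of 5 libraries, a value was marked where its gap to the next exceeded 0.71 of the group's range (Dixon's criterion), which chance alone gives in about 1 of 20 groups. Of 35 groups examined 4 were marked. mir-29a had 695.8 CPM in 2 months replicate 4, a gap of 0.716 of the range above the other 4. It had 500.4 CPM in 24 months replicate 2, a gap of 0.797 of the range below the other 4. mir-29c had 7.429 CPM in 15 months replicate 5, a gap of 0.766 of the range below the other 4. In the same library the log2 ratio of mir-29c to mir-29a was -6.142, a gap of 0.849 of the range. 24 months replicate 2 and 15 months replicate 5 are among the 3 whose counts leaned to GC-rich sequences.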

How the results depend on the processing

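Of 704 values of single members under alternative settings 0 passed the threshold and 75 had the opposite sign, with a smallest adjusted p of 0.0721 for the mir-29a trend with library totals. Of the other TMM reference libraries these 704 hold only 30 months replicate 1, and they leave out the fits estimated anew. With each library in turn as reference, the smallest adjusted p was 0.0597, for mir-29a at 30 against 2 months (edgeR). Of 156 ratio values 0 passed and 14 had the opposite sign, with a smallest adjusted p of 0.0952 for mir-29b-2 to mir-29c at 24 months in thinned libraries. The values of opposite sign follow as log2 changes against 2 months, slopes per 10 months or log2 differences of ratios, and their cause was not tested. With library totals mir-29a and mir-29b-1 stood at 0.15 and 0.15 at 15 months, and mir-29c at 0.11 at 9, 0.17 at 24 and 0.055 at 30 months with a slope of 0.029. With no filter mir-29a stood at 0.029 and mir-29b-1 at 0.022 at 15 months, mir-29b-1 at -0.055 and mir-29b-2 at -0.021 at 30 months, with slopes of -0.013 and -0.011. With a filter of 10 CPM, which leaves no value for the mir-29b rows, mir-29a stood at 0.0049 at 15 months. With GC correction mir-29a stood at 0.0075 at 15 months and mir-29c at 0.014 at 9 months. With the mir-29b rows summed or averaged, mir-29b stood at 0.010 and 0.024 at 15 months. With lane in the fit mir-29a stood at -0.0089 at 24 months, mir-29b-2 at -0.079 at 15 months and mir-29b-1 at -0.035 at 30 months with a slope of -8.8e-05. In thinned libraries mir-29b-1 stood at 0.054 at 15 months, and the ratio of mir-29b-1 to mir-29a at 0.16 at 15 and 0.033 at 30 months. For mir-29b-1 at 30 months and its slope, RLE factors gave -0.017 and -0.0020, DESeq2 gave -0.017 and -0.0023, and limma-voom gave -0.060 and -0.028. limma-voom also gave mir-29b-2 -0.033 at 15 months, -0.0072 at 24 months and a slope of -0.020, and mir-29c 0.0098 at 9 months. Without the 2-month libraries the slopes of mir-29b-1 and mir-29b-2 were -0.039 and -0.040. Without the 3 libraries of high GC slope (chosen after seeing the data) mir-29a stood at 0.031 and mir-29b-1 at 0.15 at 15 months, and the ratio of mir-29b-1 to mir-29a at 0.15 at 15 and 0.055 at 30 months. With 30 months replicate 1 as TMM reference mir-29a stood at 0.026 and mir-29b-1 at 0.022 at 15 months.

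Leaving out 1 library at a time gave mir-29a 0.098 to 0.20 at 9, -0.087 to 0.033 at 15, -0.0044 to 0.093 at 24 and 0.10 to 0.21 at 30 months, with slopes of 0.0095 to 0.038. It gave mir-29b-1 0.0038 to 0.31 at 9, -0.15 to 0.15 at 15, 0.039 to 0.41 at 24 and -0.18 to 0.21 at 30 months, with slopes of -0.033 to 0.060. It gave mir-29b-2 0.063 to 0.32 at 9, -0.12 to 0.25 at 15, 0.015 to 0.40 at 24 and -0.11 to 0.17 at 30 months, with slopes of -0.028 to 0.047. It gave mir-29c -0.13 to 0.10 at 9, -0.32 to -0.031 at 15, -0.43 to -0.016 at 24 and -0.34 to -0.026 at 30 months, with slopes of -0.12 to -0.041. The ratio of mir-29b-1 to mir-29a ran from -0.12 to 0.16 at 9, -0.21 to 0.15 at 15, -0.094 to 0.35 at 24 and -0.38 to 0.055 at 30 months. In these fits the precursors tested and the TMM factors were held, a choice made after seeing that estimating them anew admitted 340 to 349 precursors. Estimated anew, mir-29a at 30 months ran from 0.16 to 0.25, above the value with all libraries in 10 of 10 fits, with 0 past the threshold.

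The count of all changed precursors, the background of the 0 of 4, moved more. Leaving out 1 library gave 3 to 7 at 9 months (7 with all libraries), 3 to 4 at 15 months (5), 25 to 38 at 24 months (41, with 25 without 24 months replicate 1 and 26 without replicate 5), 27 to 45 at 30 months (48, with 27 without 30 months replicate 2, and 31 and 30 without 2 months replicates 3 and 5), 14 to 28 for any age (27) and 45 to 74 for the trend (67). At 9 months the libraries behind the lower counts were 2 months replicates 3, 4 and 5 and 9 months replicates 2, 3 and 4. At 15 months they were 2 months replicates 1 and 2 and 15 months replicates 2, 3 and 5. For any age they were 2 months replicates 3, 4 and 5, 15 months replicates 1 and 4, 24 months replicates 1 and 5 and 30 months replicates 2 and 5. At 15 months the count was 3 with library totals, a filter of 10 CPM, limma-voom, lane in the fit or without the 3 libraries, and 2 with the libraries of the 2 ages alone. At 24 months it was 24 with upper quartile factors, 20 with no filter and 72 with library totals. At 30 months it was 15 with no filter, 28 in thinned libraries and 30 with the libraries of the 2 ages alone. At 9 months it was 4 with upper quartile factors or lane in the fit. For any age it was 44 with library totals, 10 in thinned libraries and 16 with lane in the fit. For the trend it was 41 with no filter, 43 with a filter of 10 CPM and 7 without the 2-month libraries. No paired analysis was possible because the labels give no replicate numbers shared between ages, and lane, the one grouping across ages, was fitted as a term.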
